A study of Homo sapiens with 12 samples.

Results

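The arrays used here carry several probe sets for many genes, each assigned to the gene by the platform annotation, and in 82 genes these probe sets moved in opposite directions after Ota on the scale of the deposited values. The 82 genes were chosen by a rule on the 24 h arrays. A gene entered if at least 2 probe sets carried its symbol and no other, each with a mean over 5 across the 12 arrays, and if the Ota 24 h minus control 24 h difference of group means was at least 1.5 on the log2 scale in 1 probe set and at most -1.5 in another. This held for 82 of the 4109 genes with at least 2 such probe sets, out of 9218 genes with at least 1. The values are on the log2 scale, made by the authors with GCRMA, and a difference is always Ota minus control. Scaled to the spike-in RNAs described further on, the rule found 67 genes, 19 of them among the 82, and 66 of the 82 upper probe sets were above 0 at 24 h and 16 below it, with all 82 lower ones below 0.

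The cells were HK-2, an immortalized line of human renal proximal tubular epithelial cells, grown in a medium that held EGF, hydrocortisone and insulin. The 4 groups were Ota for 24 h, control for 24 h, Ota for 72 h and control for 72 h, with 3 biological replicates each. The labels give the dose of Ota as high, without an amount, and the controls received the vehicle, which the labels do not name. A line of this kind is 1 immortalized cell population, and of 11 proximal tubule markers 2 (PAX8 and SLC3A1) exceeded a value of 4 on at least 3 arrays, beside 5 of 5 epithelial markers, 3 of 4 fibroblast markers (COL1A1, DCN and LUM), 1 of 3 collecting duct markers (AQP3), 1 of 4 podocyte markers (PODXL), 0 of 5 endothelial and 0 of 5 leukocyte markers. In RNA from a whole culture, fewer cells holding a transcript and less of it per cell cannot be told apart.

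As background, a human gene usually gives rise to several transcripts, which differ in their promoter, in the exons that are joined and in the place where the 3′ end is cut and polyadenylated. Arrays of this design read short stretches, most of them chosen near a 3′ end known from an expressed sequence tag, a messenger RNA record or a curated reference transcript. Probe sets of the same symbol can therefore read transcripts with different 3′ ends, retained introns, or RNA of the other strand or of a related gene, and the array gives no length or structure of what was bound. The probes' sequences and positions were not used here, so which transcript each probe set reads is not known in what follows.

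For each gene the probe set with the largest 24 h difference is called the upper probe set and the one with the most negative difference the lower probe set. Both names come from the 24 h arrays alone. The 72 h arrays had no part in the ±1.5 rule and are the ones tested. At 72 h each probe set's difference was tested with limma, and so was the gap, the upper probe set's difference minus the lower probe set's difference, formed on each array so that any shift common to a whole array drops out. A call means a limma p under 0.05 after Benjamini-Hochberg adjustment over all 19407 probe sets or all 4109 genes.

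The arrays of the Ota groups differed from those of the control groups as a whole. The poly-A spike-ins, bacterial RNAs added in fixed amount, were higher by 1.85 at 24 h and by 0.889 at 72 h in Ota arrays, and probe sets for 18S ribosomal RNA were higher by 1.58 and 1.34. Every such separation had an exact permutation p of 0.1 (two-sided), the smallest that 3 arrays against 3 allow. The difference between 3′ and 5′ probe sets of ACTB, a sign of RNA quality, averaged 1.97 ± 0.33 in Ota arrays and 1.39 ± 0.15 in control arrays at 72 h (SD over 3 arrays a group), with an exact permutation p of 0.1, and that of GAPDH was 0.033 higher in Ota arrays (exact permutation p = 0.7). At 24 h the ACTB difference averaged 1.23 ± 0.15 in Ota arrays and 1.18 ± 0.19 in control arrays (SD over 3 arrays a group, exact permutation p = 0.9). The part of RNA quality and of RNA amount in the results was not tested. A scaling to the spike-ins would lower every 24 h difference by 1.85 and every 72 h difference by 0.889 and leave every gap as it is.

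The 82 genes had 369 probe sets of their own symbol, of which 283 had a mean over 5 and 86 did not. Of the 82 genes, 22 had exactly 2 probe sets with a mean over 5, 60 had at least 3 and 34 at least 4. At 24 h 97 of the 283 probe sets were higher by 1.5 or more, 110 were lower by 1.5 or more and 76 lay in between. In 48 genes 1 probe set stood on each side, 21 genes had more probe sets on the lower side and 10 had more on the higher side. By the rule, all 82 upper differences were at least 1.5 and all lower ones at most -1.5, with medians of 2.35 and -2.40 and extremes of 5.94 and -5.21. The gap at 24 h had a median of 5.05 and ran between 3.03 and 10.81.

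The weaker side of a gene decided its place. Just inside, BICD1 had differences of 1.503 and -3.402, ATP2A2 of 2.379 and -1.505 and MRPL35 of 1.521 and -1.508. Just outside, RBBP4 had 2.498 and -1.475, GPATCH2 had 2.027 and -1.474 and ZMYM5 had 1.567 and -1.474.

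At 72 h the upper probe sets were mostly still higher in Ota cells, while the lower ones were split. Of the 82 upper probe sets 74 rose, 1 fell (HEATR6) and 7 gave no call, where 27.2% of all tested probe sets rose. Of the lower probe sets 43 fell, 6 rose and 33 gave no call, where 31.6% of all tested probe sets fell. With the spread taken from the 6 arrays of 72 h alone, 48 lower ones fell and 12 rose. Over all 19407 probe sets 6622 fell and 5828 rose in that fit. The median difference at 72 h was 2.27 over the upper and -0.83 over the lower probe sets, beside -0.04 over all tested probe sets. In 37 genes the upper probe set rose and the lower one fell, which held for 4.84% of the 4109 genes. In 31 genes the upper rose and the lower gave no call, in 6 both rose, in 5 the upper gave no call and the lower fell, in 2 (ROR1 and BICD1) neither passed and in 1 (HEATR6) both fell. Scaled to the spike-ins, 60 upper probe sets rose and 4 fell, and 61 lower ones fell and 0 rose. The words rose and fell below refer to the deposited scale. Of the probe sets that rose on it, the upper ones of KCNJ15 (0.84), CLNS1A (0.85) and NCK1 (0.88) and the lower ones of GPAT4 (0.64), IDI1 (0.66) and ACTR3 (0.71) would lie below 0 scaled to the spike-ins. The 6 lower probe sets that rose became 3 without Ota 72 h replicate 1, without Ota 72 h replicate 3 or without control 72 h replicate 2, and 11 without Ota 24 h replicate 2, while HEATR6 lost its call without any 1 of 8 arrays (Ota 24 h replicate 1, Ota 72 h replicates 1 and 3, control 24 h replicates 1 and 3 and control 72 h replicates 1, 2 and 3), and 2 upper probe sets fell without Ota 24 h replicate 3.

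**Figure D1:**
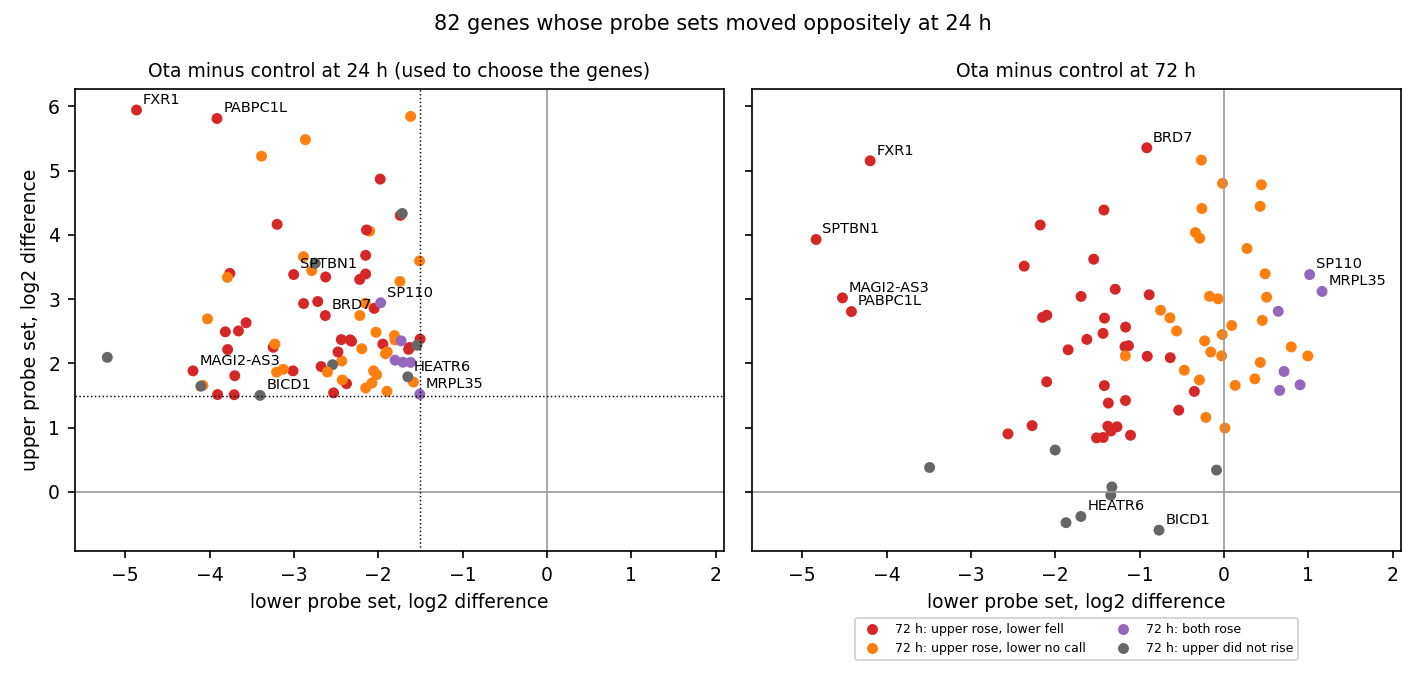
Each point is 1 of the 82 genes, with the Ota minus control difference of its lower probe set on the horizontal axis and of its upper probe set on the vertical axis, both log2, at 24 h on the left and at 72 h on the right. Dotted lines mark the ±1.5 rule, and colours give the 72 h calls on the deposited scale. At 72 h the 74 risen upper probe sets start at 0.84 while the lower ones spread between -4.84 and 1.16.

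The gap at 72 h was above 0 in all 82 genes and called above 0 in 75, where 32.5% of the 4109 genes were called above 0 and 2.99% below 0. None of the 82 was called below 0. In 80 of them all 3 Ota arrays lay above all 3 control arrays in the gap, which held for 47.3% of the 4109 genes. The median gap was 2.96, the lowest 0.18 and the highest 9.35, and 62 genes had a gap of at least 2. The 7 genes without a call were KMT2C, LDAH, C3orf38, IDI1, GTPBP4, ROR1 and BICD1. A gap larger at 72 h than at 24 h was seen in 4 genes (SPTBN1, MAGI2-AS3, BRD7 and HSPA14), and 13 pairs were still at least 1.5 higher and at least 1.5 lower at 72 h (ANKRD11, ATP6V0A2, CCDC50, FXR1, HSPA14, LINC01128, MAGI2-AS3, PABPC1L, PHLDA1, SLFN5, SMIM7, SPTBN1 and SRSF10).

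**Figure D2:**
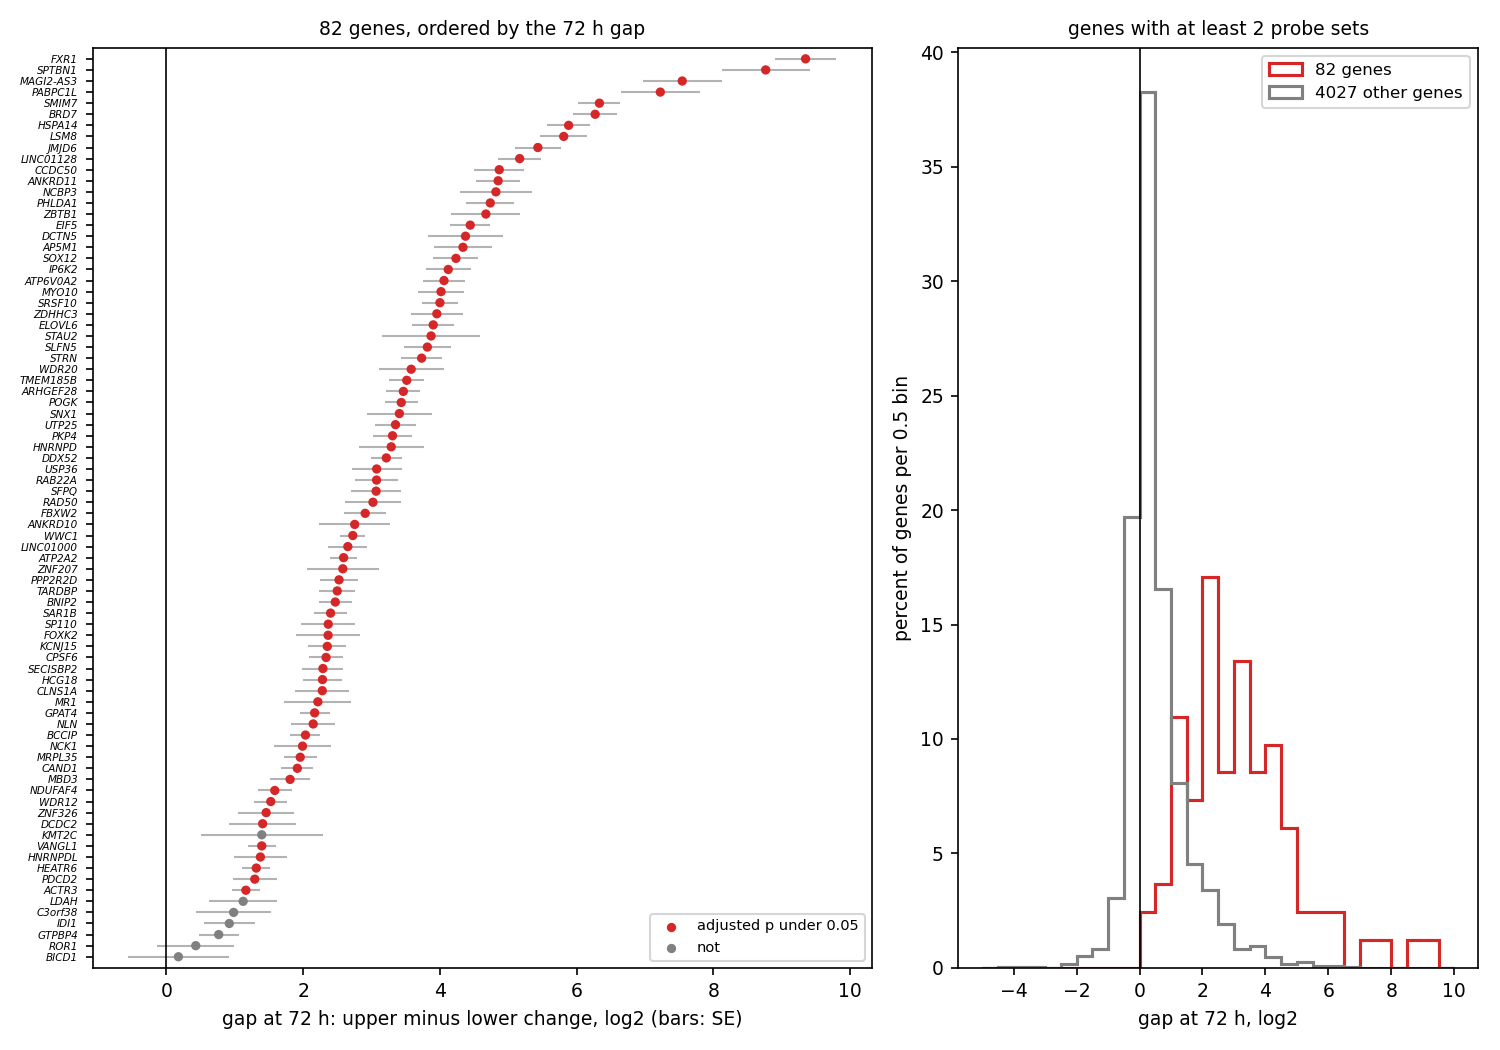
The left panel gives the 72 h gap (log2) of each of the 82 genes as a point with its SE, red where the adjusted p was under 0.05, and the right panel gives the share of genes per 0.5 bin for the 82 genes and for the 4027 other genes with at least 2 probe sets. The gaps run between 0.18 (BICD1) and 9.35 (FXR1).

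The genes are described by what their products do, a grouping made after the genes were known. At 72 h 91.5% of all the genes chosen by the rule had a gap called above 0, with a median gap of 2.96. Of their upper probe sets 90.2% rose, and of their lower ones 52.4% fell and 7.32% rose. The counts of each group below stand beside these shares, and whether any group departs from them was not tested. The 14 genes of RNA binding and processing all had a gap called above 0, with a median of 3.58. Of their upper probe sets 13 rose, and of their lower ones 6 fell and 0 rose. FXR1, an RNA-binding protein of the fragile X family, had the largest gap of an extreme pair at both times. Probe set 235960_at, the upper one, read 9.44, 9.01 and 9.54 in Ota cells at 24 h, against 3.32, 3.41 and 3.43 in control cells, and 9.55, 9.92 and 9.08 in Ota cells at 72 h, against 4.28, 4.73 and 4.07 in control cells. Probe set 229519_at, the lower one, read 3.80, 4.09 and 3.40 in Ota cells at 24 h, against 8.62, 8.46 and 8.81 in control cells, and 5.86, 4.14 and 4.53 in Ota cells at 72 h, against 8.90, 9.12 and 9.09 in control cells. The groups did not overlap in either probe set at either time. The 72 h difference was 5.15 ± 0.24 in the upper and -4.19 ± 0.35 in the lower probe set (SE, 3 arrays a group), and the gap was 9.35 ± 0.45 (limma adjusted p = 6.4e-08). With the mean of all probe sets that had been higher at 24 h minus the mean of all that had been lower, the 72 h gap of FXR1 was 4.69, below those of MAGI2-AS3 (7.54), PABPC1L (7.22) and BRD7 (5.82) by the same measure. FXR1 had 6 probe sets with a mean over 5 and BRD7 had 4. MAGI2-AS3 and PABPC1L had only 2 each, so their value is that of the extreme pair.

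PABPC1L, a cytoplasmic poly(A)-binding protein, had the second largest 24 h gap, 9.72. At 72 h its upper probe set 231838_at read 8.10, 8.24 and 7.31 in Ota cells, against 4.92, 5.10 and 5.21 in control cells. Its lower probe set 226670_s_at read 4.95, 4.12 and 4.94 in Ota cells, against 9.01, 8.72 and 9.54 in control cells. Both separated the groups without overlap, in opposite directions, with a gap of 7.22 ± 0.58 (SE, limma adjusted p = 2.0e-06). LSM8 is a subunit of the ring that binds the U6 small nuclear RNA of the spliceosome. Probe set 228529_at, the upper one, read 9.23, 9.04 and 8.87 in Ota cells at 72 h, against 4.69, 4.86 and 4.42 in control cells, and its lower probe set 219119_at read 9.07, 8.67 and 9.15 in Ota cells, against 10.25, 10.34 and 10.56 in control cells. The gap was 5.81 ± 0.34 at 72 h (SE, limma adjusted p = 2.3e-07) and 7.36 at 24 h.

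JMJD6, a lysyl hydroxylase that acts on splicing factors, shows the other frequent form on the deposited scale. Its upper probe set stayed high and its lower one was back near control. Probe set 215233_at, the upper one, read 8.86, 8.83 and 8.77 in Ota cells at 24 h, against 3.13, 2.67 and 3.14 in control cells, and 8.37, 8.63 and 7.82 in Ota cells at 72 h, against 3.14, 3.49 and 2.70 in control cells. The lower probe set 212723_at read 5.66, 5.85 and 6.88 in Ota cells at 24 h, against 7.69, 7.67 and 7.87 in control cells, and 7.58, 7.37 and 7.50 in Ota cells at 72 h, against 7.54, 7.99 and 7.74 in control cells. At 72 h the lower groups overlapped (adjusted p = 0.41), and the gap of 5.43 ± 0.34 (SE, limma adjusted p = 3.8e-07) came almost wholly from the upper probe set's difference of 5.16. In STAU2, a double-stranded RNA-binding protein of RNA transport, it was the reverse. Probe set 227179_at, the upper one, read 6.46, 7.27 and 5.82 in Ota cells at 72 h, against 6.17, 6.25 and 5.98 in control cells, with no call (adjusted p = 0.34). Probe set 204226_at, the lower one, read 5.34, 3.09 and 5.00 in Ota cells, against 7.85, 8.06 and 7.99 in control cells, and fell by 3.49 (limma adjusted p = 4.5e-05).

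CPSF6, a subunit of cleavage factor Im, which takes part in the choice of the site where 3′ ends are cut, was the member that also stood in the list of 3′ end processing genes described further on. Its upper probe set 226934_at read 9.35, 9.74 and 9.25 in Ota cells at 72 h, against 7.10, 7.40 and 7.30 in control cells, and rose by 2.18. Probe set 202469_s_at, the lower one, read 9.57, 9.22 and 9.80 in Ota cells, against 9.39, 9.84 and 9.83 in control cells, with no call. The gap was 2.34 ± 0.25 (SE, limma adjusted p = 1.7e-05). The other 8 genes of the group were the AU-rich element binding protein HNRNPD and its relative HNRNPDL, the paraspeckle protein SFPQ, the SR protein SRSF10, TARDBP, the cap-binding protein NCBP3, the small nuclear ribonucleoprotein assembly factor CLNS1A and ZNF326. Their gaps ran between 1.37 in HNRNPDL and 4.82 in NCBP3, and the upper probe set rose in each of the 8. Of their lower probe sets those of SRSF10 (-1.63) and CLNS1A (-1.43) fell.

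**Figure D3:**
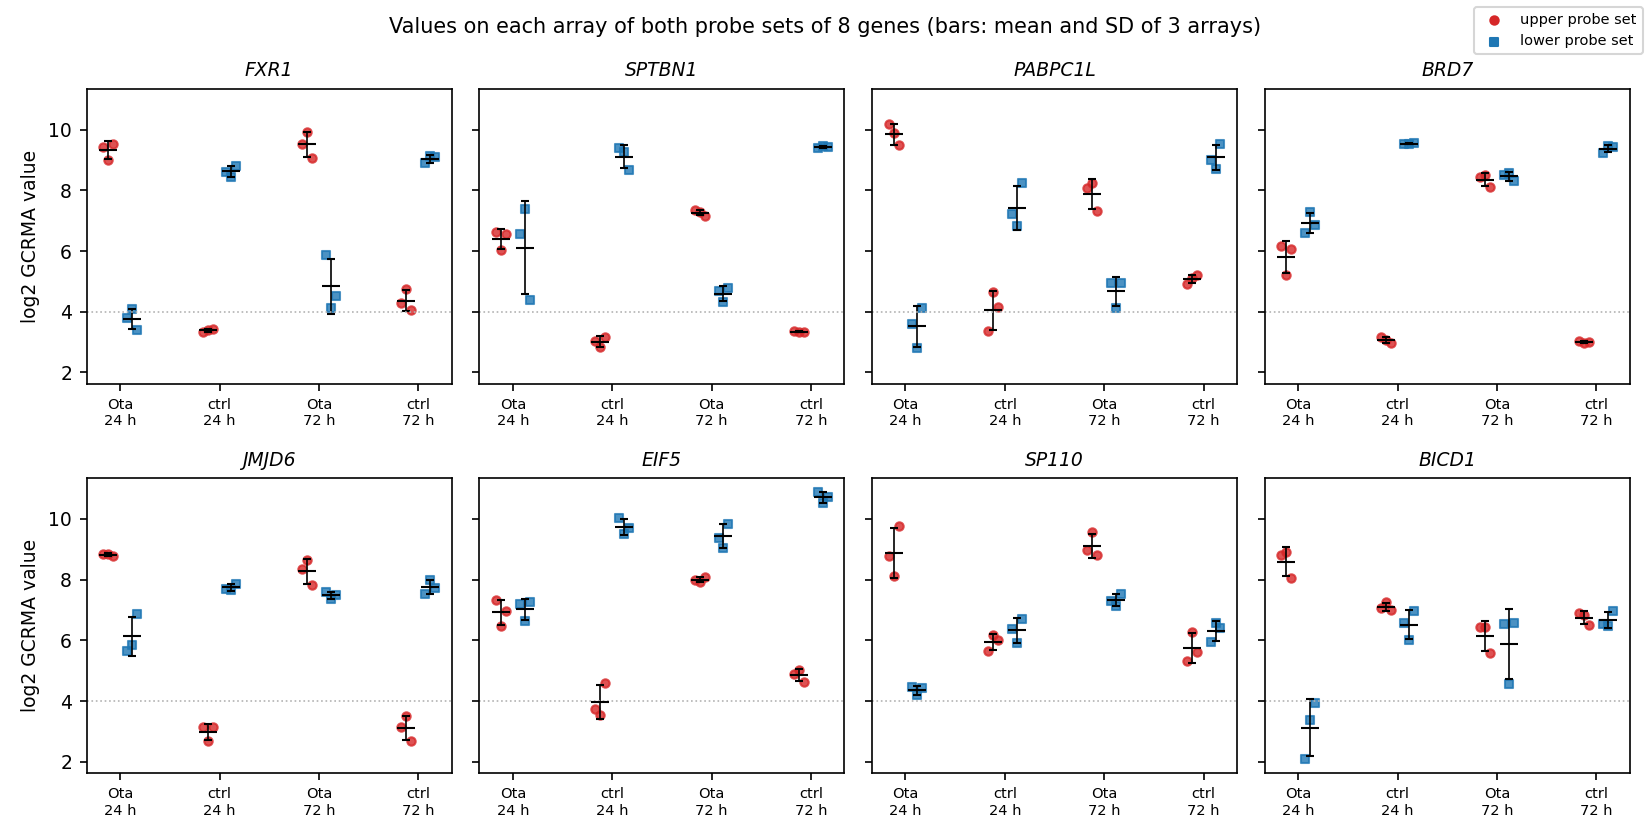
Log2 values on each of the 12 arrays for the upper probe set (red circles) and the lower probe set (blue squares) of 8 genes, with the mean and SD of 3 arrays, and a dotted line at 4. In FXR1, SPTBN1 and PABPC1L both probe sets stand apart from control at 72 h, in JMJD6 only the upper one does, and in BICD1 the 72 h groups of both probe sets lie close together.

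The 7 genes of translation and ribosome assembly had upper probe sets that all rose at 72 h, while 2 lower ones fell, 2 rose and 3 gave no call. EIF5, the GTPase activator of start codon selection, had 1 probe set that moved against 4 others. Probe set 208707_at, the upper one, read 7.98, 7.93 and 8.09 in Ota cells at 72 h, against 4.88, 5.02 and 4.64 in control cells. The lower probe set 208290_s_at read 9.38, 9.06 and 9.85 in Ota cells, against 10.89, 10.52 and 10.74 in control cells. Neither pair of groups overlapped, and the gap was 4.44 ± 0.29 (SE, limma adjusted p = 4.7e-07). The 4 probe sets of EIF5 other than the upper one all fell at 72 h, by 0.74 to 1.43.

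UTP25, a factor of the small ribosomal subunit processome, had an upper probe set 220251_at of 8.95, 9.38 and 9.26 in Ota cells at 72 h, against 6.66, 6.38 and 6.42 in control cells. Probe set 204699_s_at, the lower one, read 7.32, 7.15 and 7.24 in Ota cells, against 7.88, 7.81 and 7.93 in control cells, with no overlap but no call (adjusted p = 0.093). The gap was 3.35 ± 0.29 (SE, limma adjusted p = 4.0e-06). In MRPL35, a protein of the large mitochondrial ribosomal subunit, both probe sets rose at 72 h. The upper one, 225255_at, read 8.93, 8.76 and 8.10 in Ota cells, against 5.27, 5.67 and 5.50 in control cells, and the lower one, 222775_s_at, read 7.47, 7.62 and 7.13 in Ota cells, against 6.27, 6.26 and 6.21 in control cells. The lower probe set's groups did not overlap, and its difference of 1.16 ± 0.44 (SE, adjusted p = 0.04) had the opposite sign to its -1.51 at 24 h. GTPBP4, a GTPase of large subunit assembly, also had both probe sets risen, by 1.67 and 0.90, and a gap of 0.77 ± 0.29 that gave no call (SE, limma adjusted p = 0.062). Its gap was called with the replicate number as a block (adjusted p = 0.0328), with quantile normalization (0.0253), with array weights (0.0272), from the 72 h arrays alone (0.0411), with the means of sides (0.0384), and without Ota 24 h replicate 2 or 3 or control 24 h replicate 2. The gaps of WDR12 (large subunit assembly), the RNA helicase DDX52 and SECISBP2, which serves selenoprotein synthesis, were 1.53, 3.22 and 2.29, each called.

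Among the 9 genes of chromatin and transcription 8 upper probe sets rose at 72 h, 5 lower ones fell and 1 rose. BRD7, a bromodomain subunit of a SWI/SNF remodelling complex, was 1 of the 4 genes with a larger gap at 72 h than at 24 h. Probe set 238545_at, the upper one, read 6.17, 5.20 and 6.07 in Ota cells at 24 h, against 3.16, 3.06 and 2.98 in control cells, and 8.44, 8.52 and 8.10 in Ota cells at 72 h, against 3.02, 2.98 and 3.00 in control cells. The lower probe set 221776_s_at read 8.52, 8.57 and 8.30 in Ota cells at 72 h, against 9.25, 9.45 and 9.43 in control cells. The groups stood apart in each case, and the gap was 6.27 ± 0.32 at 72 h (SE, limma adjusted p = 8.5e-08) and 5.37 at 24 h. The upper probe set of BRD7 would not have met the minimum mean of 5 without its high Ota values at 72 h. The same held for the upper probe sets of JMJD6 and SPTBN1. How many other members share this was not counted.

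ZBTB1, a zinc finger repressor, had a gap of 8.61 at 24 h. Probe set 205092_x_at, the upper one, read 8.12, 8.38 and 7.78 in Ota cells at 72 h, against 3.60, 4.09 and 3.36 in control cells. Probe set 213376_at, the lower one, read 6.14, 3.71 and 6.49 in Ota cells at 24 h, against 8.96, 8.67 and 8.85 in control cells, and 8.33, 8.18 and 8.69 in Ota cells at 72 h, against 8.86, 8.54 and 8.58 in control cells. The 72 h gap of 4.67 ± 0.50 (SE, limma adjusted p = 2.0e-05) thus lay in the upper probe set, and the lower one gave no call. In SP110, a nuclear body protein induced by interferon, the lower probe set 209762_x_at read 4.45, 4.19 and 4.44 in Ota cells at 24 h, against 6.38, 5.90 and 6.71 in control cells, and 7.30, 7.15 and 7.53 in Ota cells at 72 h, against 5.96, 6.58 and 6.39 in control cells. It lay below control at 24 h and rose by 1.02 at 72 h, while the upper probe set 223980_s_at rose by 3.38. The gap of SP110 was 2.37 ± 0.40 (SE, limma adjusted p = 5.8e-04). The gaps of the other 6 genes, ANKRD11, the transcription factors SOX12, POGK and FOXK2, the methyl-CpG binding domain protein MBD3 and the histone methyltransferase KMT2C, ran between 1.39 in KMT2C and 4.85 in ANKRD11, and that of KMT2C gave no call (adjusted p = 0.27).

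All 12 upper probe sets of genes for membrane traffic, lipids and ion transport rose at 72 h, and of the lower ones 8 fell and 2 rose. AP5M1, a subunit of the AP-5 adaptor complex of endosomes, had an upper probe set 232156_at of 8.91, 8.81 and 8.13 in Ota cells at 72 h, against 3.88, 3.46 and 4.17 in control cells. Its lower probe set 222531_s_at read 8.23, 7.56 and 8.31 in Ota cells, against 7.70, 7.66 and 7.42 in control cells, with no call. The gap was 4.34 ± 0.43 (SE, limma adjusted p = 1.0e-05). ATP2A2, the calcium pump of the endoplasmic reticulum, is known to be made in forms with different 3′ ends, and which of them each probe set reads was not determined. Probe set 212361_s_at, the upper one, read 11.77, 11.93 and 11.46 in Ota cells at 72 h, against 10.38, 10.19 and 10.30 in control cells, and the lower probe set 209186_at read 10.84, 10.67 and 10.77 in Ota cells, against 11.89, 11.90 and 11.99 in control cells. Both sides separated the groups, with a gap of 2.59 ± 0.20 (SE, limma adjusted p = 1.7e-06).

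IDI1, the isopentenyl diphosphate isomerase of sterol synthesis, and GPAT4, a glycerol phosphate acyltransferase, were the 2 genes of this group with a lower probe set that rose, by 0.66 (adjusted p = 0.021) and 0.64 (adjusted p = 0.04). The upper probe set of IDI1, 233014_at, read 6.36, 6.38 and 6.03 in Ota cells at 72 h, against 4.50, 5.16 and 4.38 in control cells, and the gap of 0.92 ± 0.37 (SE) gave no call (adjusted p = 0.079). The IDI1 gap was called with quantile normalization (adjusted p = 0.0249), with array weights (0.0227), with the means of sides (0.0417), and without Ota 24 h replicate 1 or control 72 h replicate 2. The remaining genes were the vesicle coat GTPase SAR1B, the endosomal GTPase RAB22A, the sorting nexin SNX1, the palmitoyltransferase ZDHHC3, the proton pump subunit ATP6V0A2, the potassium channel KCNJ15, the fatty acid elongase ELOVL6 and the lipid droplet hydrolase LDAH. In SAR1B, RAB22A, SNX1, ZDHHC3, ATP6V0A2, KCNJ15 and ELOVL6 the upper probe set rose and the lower one fell, with gaps between 2.35 (KCNJ15) and 4.06 (ATP6V0A2). LDAH had a gap of 1.12 with no call (adjusted p = 0.10).

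The 14 genes of the cytoskeleton, motors and junctions held both the second largest and the smallest gaps at 72 h. Of their upper probe sets 11 rose, and of their lower ones 7 fell and 1 rose. SPTBN1 is a beta-spectrin of the membrane skeleton. Probe set 242220_at, the upper one, read 7.35, 7.29 and 7.17 in Ota cells at 72 h, against 3.36, 3.33 and 3.34 in control cells, and its lower probe set 226342_at read 4.67, 4.33 and 4.80 in Ota cells, against 9.39, 9.47 and 9.44 in control cells. The arrays of a group lay close together and far from the other group in both, and the gap was 8.76 ± 0.65 (SE, limma adjusted p = 1.1e-06), and 4.15 with the means of all higher and all lower probe sets. At 24 h the lower probe set was less even, with 6.57, 7.37 and 4.40 in Ota cells, against 9.41, 9.26 and 8.69 in control cells.

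DCTN5, a subunit of the dynactin complex, had an upper probe set 1556646_at of 10.11, 10.55 and 9.44 in Ota cells at 72 h, against 6.05, 6.40 and 5.55 in control cells. The lower probe set 209231_s_at read 7.46, 7.38 and 7.34 in Ota cells, against 7.78, 7.66 and 7.75 in control cells, with no overlap but no call, and the gap was 4.37 ± 0.55 (SE, limma adjusted p = 6.6e-05). STRN, a scaffold that binds protein phosphatase 2A, had an upper probe set 242989_at of 8.03, 7.79 and 7.55 in Ota cells at 72 h, against 4.64, 5.55 and 5.48 in control cells. Probe set 227422_at, the lower one, read 5.71, 5.59 and 6.01 in Ota cells, against 6.80, 7.04 and 6.97 in control cells. The gap of STRN was 3.73 ± 0.30 (SE, limma adjusted p = 1.8e-06), with no overlap of the groups on either side.

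BICD1, an adaptor between dynein and its cargo, had the smallest gap of an extreme pair. Probe set 204741_at, the upper one, read 6.43, 6.45 and 5.58 in Ota cells at 72 h, against 6.91, 6.83 and 6.50 in control cells, and its lower probe set 1554020_at read 6.53, 4.56 and 6.57 in Ota cells, against 6.55, 6.46 and 6.96 in control cells. The gap of 0.18 ± 0.74 (SE, adjusted p = 0.89) depended on single arrays: without Ota 72 h replicate 2 it was -0.63 and without control 72 h replicate 3 it was -0.10. With the means of all its higher and all its lower probe sets the gap was 2.00 and was called (adjusted p = 9.73e-05). Another pair of probe sets of BICD1, 214806_at and 242228_at, fell by 3.53 and 3.69 at 72 h. ROR1, a receptor for WNT5A, had a gap of 0.43 ± 0.57 with no call (SE, adjusted p = 0.62), and a further probe set, 211057_at, fell by 1.10. The other genes were the Arp2/3 complex subunit ACTR3, the myosin MYO10, the junction protein PKP4, the adaptor NCK1, DCDC2, the planar polarity protein VANGL1, WWC1, the exchange factor ARHGEF28 and the spindle protein ZNF207, with gaps between 1.16 (ACTR3) and 4.02 (MYO10), each called. In ACTR3 both probe sets rose, by 1.87 and 0.71.

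In the 6 genes of protein folding and ubiquitin all upper probe sets rose at 72 h, 3 lower ones fell and 0 rose. HSPA14, an Hsp70-type chaperone, had an upper probe set 219212_at of 11.69, 11.88 and 11.41 in Ota cells at 72 h, against 8.11, 8.17 and 8.16 in control cells. Its lower probe set 227650_at read 4.39, 3.53 and 4.49 in Ota cells, against 6.48, 6.29 and 6.76 in control cells. The gap was 5.88 ± 0.32 (SE, limma adjusted p = 1.4e-07), larger than the 5.51 of 24 h. CCDC50, a ubiquitin-binding protein, read 9.34, 9.61 and 9.09 in Ota cells at 72 h, against 6.88, 6.50 and 6.50 in control cells, with its upper probe set 228693_at. Probe set 225331_at, the lower one, read 8.49, 7.60 and 8.93 in Ota cells, against 10.47, 10.47 and 10.54 in control cells, and the gap was 4.87 ± 0.36 (SE, limma adjusted p = 1.2e-06). Both probe sets of CCDC50 and of HSPA14 separated the groups fully.

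WDR20, a cofactor of deubiquitinases, had an upper probe set 227693_at of 9.69, 9.59 and 9.28 in Ota cells at 72 h, against 6.61, 6.72 and 6.74 in control cells. Probe set 227541_at, the lower one, read 7.15, 7.29 and 7.38 in Ota cells, against 7.91, 8.15 and 8.03 in control cells, and gave no call although the groups did not overlap. The gap of WDR20 was 3.58 ± 0.47 (SE, limma adjusted p = 9.7e-05). The F-box protein FBXW2, the cullin exchange factor CAND1 and the deubiquitinase USP36 had gaps of 2.91, 1.92 and 3.08, each called.

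Of 4 long non-coding RNAs all lower probe sets fell at 72 h and 3 upper ones rose. MAGI2-AS3, transcribed from the strand opposite MAGI2, had an upper probe set 229480_at of 7.10, 6.53 and 7.09 in Ota cells at 72 h, against 3.53, 3.69 and 4.43 in control cells. Its lower probe set 227554_at read 3.66, 3.36 and 4.03 in Ota cells, against 8.35, 8.14 and 8.13 in control cells. The gap was 7.54 ± 0.58 at 72 h (SE, limma adjusted p = 1.4e-06), above the 6.08 of 24 h. LINC01128 read 8.01, 8.02 and 7.82 in Ota cells, against 4.32, 4.52 and 4.14 in control cells, with its upper probe set 235497_at, and 5.86, 5.46 and 5.91 in Ota cells, against 7.33, 7.20 and 7.34 in control cells, with its lower probe set 1557055_s_at. The gap of LINC01128 was 5.17 ± 0.31 (SE, limma adjusted p = 3.0e-07). LINC01000 and HCG18 had gaps of 2.65 and 2.28, both called.

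The last 16 genes had various or unassigned roles. SMIM7, a small membrane protein, had an upper probe set 221988_at of 10.67, 10.77 and 10.24 in Ota cells at 72 h, against 6.57, 6.19 and 6.46 in control cells, and a lower probe set 224717_s_at of 7.58, 7.27 and 7.71 in Ota cells, against 9.54, 9.73 and 9.84 in control cells. The groups did not overlap in either, and the gap was 6.33 ± 0.31 (SE, limma adjusted p = 6.4e-08). SLFN5, of the interferon-induced Schlafen family, read 8.33, 8.89 and 8.14 in Ota cells at 72 h, against 6.76, 6.58 and 6.87 in control cells, with its upper probe set 230383_x_at. Probe set 1557078_at, the lower one, read 5.86, 6.15 and 6.46 in Ota cells, against 8.48, 7.76 and 8.53 in control cells, and the gap was 3.82 ± 0.35 (SE, limma adjusted p = 5.2e-06).

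C3orf38 had a gap of 0.98 ± 0.55 with no call (SE, adjusted p = 0.20), from an upper difference of 0.99 and a lower one of 0.01. It was called from the 72 h arrays alone (adjusted p = 0.0265), with array weights (0.0341) and without Ota 24 h replicate 3 (0.0124). In HEATR6 both probe sets fell, by 0.38 and 1.70, and the gap of 1.31 ± 0.20 was called. The other 12 were the early response gene PHLDA1, the inositol phosphate kinase IP6K2, TMEM185B, the DNA repair proteins RAD50 and BCCIP, ANKRD10, the phosphatase subunit PPP2R2D, BNIP2, the antigen-presenting protein MR1, the peptidase NLN, the complex I assembly factor NDUFAF4 and PDCD2. Their gaps ran between 1.29 (PDCD2) and 4.74 (PHLDA1), each called.

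Further probe sets of the same genes show whether a side rests on a single probe set. Besides the upper and lower probe sets, 15 others had been higher by 1.5 or more at 24 h, and of these 13 rose and 0 fell at 72 h. Another 28 had been lower by 1.5 or more, and of these 12 fell and 3 rose. Of the 76 probe sets between the limits 29 rose and 18 fell. Beside these counts, 27.2% of all tested probe sets rose and 31.6% fell at 72 h. Among the 86 probe sets with a mean of 5 or less, 14 rose, 3 fell, 8 gave no call and 61 were too low to be tested. In STRN the probe sets 244354_at and 215287_at rose at 72 h by 2.37 and 2.37 beside the 2.57 of the upper one. Of the 2 AP5M1 probe sets that had been higher, the second, 236004_at, rose by 4.25, and of the lower ones the second, 218139_s_at, read 0.48 with no call. In HSPA14 the second lower probe set, 226887_at, fell by 1.85.

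Other genes were less even. FXR1 had 6 probe sets. Of these 235960_at, 230201_at and 201636_at rose at 72 h, by 5.15, 1.95 and 1.39, while 201635_s_at, 201637_s_at and 229519_at fell, by 0.69, 0.71 and 4.19. In ZNF207, a spindle protein with 8 probe sets over the limit, 229765_at rose by 2.35, and 228157_at, which had been at -1.17 at 24 h, rose by 2.64. With the mean of all higher minus the mean of all lower probe sets in place of the extreme pair, the gap of ZNF207 was 0.54 with no call (adjusted p = 0.357) and that of ROR1 was -0.29. By the same measure 77 of the 82 gaps were called above 0, and BICD1, GTPBP4 and IDI1 gained a call. The count over all genes by this measure is given at the end.

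**Figure D4:**
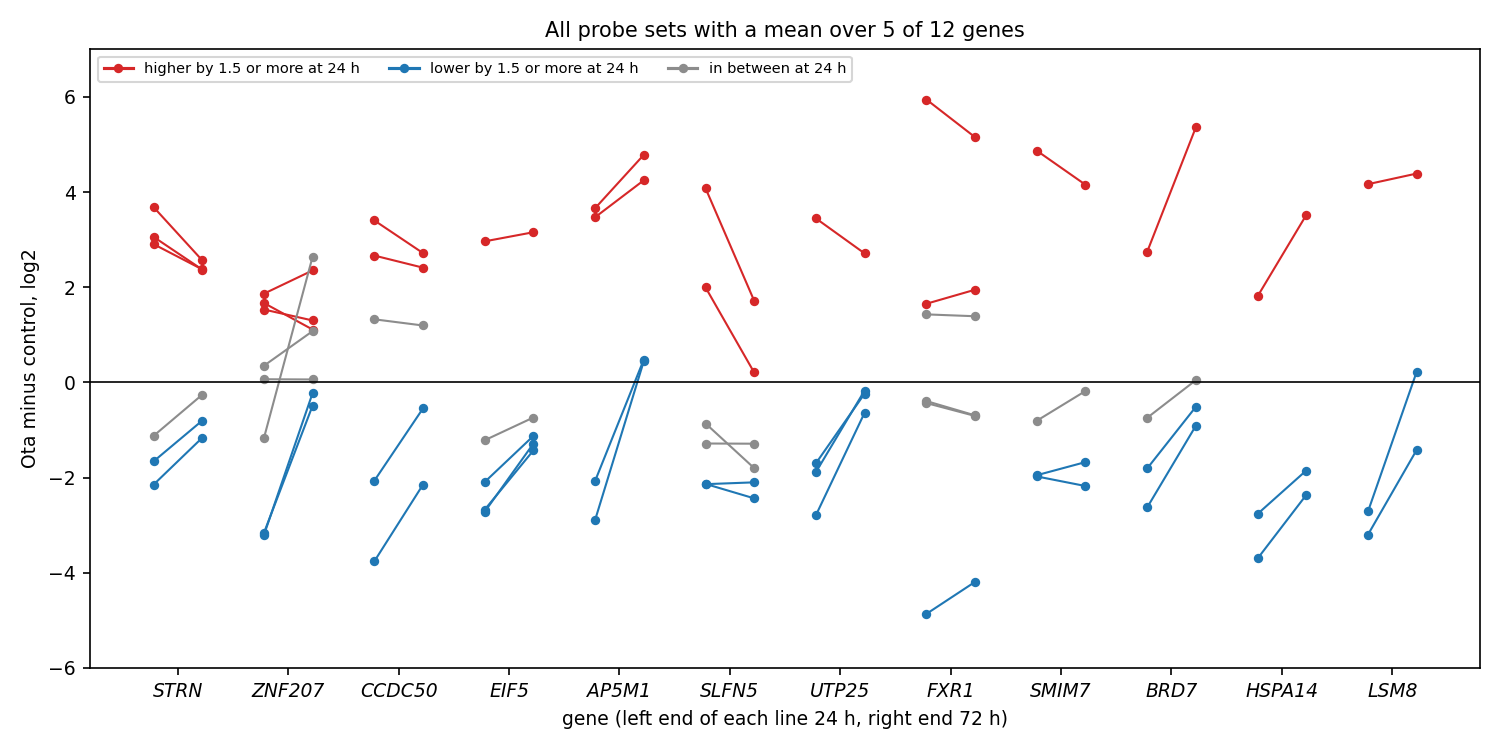
Each line is 1 probe set of 12 genes that had at least 2 probe sets past the 24 h rule on 1 side and the largest numbers or gaps, with its Ota minus control difference (log2) at 24 h at the left end and at 72 h at the right end, coloured by its 24 h difference. The red lines mostly stay well above 0, while the blue lines of ZNF207, AP5M1 and UTP25 end near 0 and those of FXR1, SLFN5, SMIM7 and HSPA14 stay below -1.

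The 2 sides differed in how they moved over time, which is given as a description, since the 24 h arrays chose the genes. The lower probe sets in Ota cells were higher at 72 h than at 24 h in 77 of 82 genes, by a median of 1.79. The upper probe sets in Ota cells were higher at 72 h in 40 of 82 genes, with a median change of -0.02. In control cells the median change between 24 h and 72 h was -0.02 for the lower and 0.22 for the upper probe sets. The upper minus the lower value of a gene changed in control cells by -1.24 to 1.70, with a median of 0.37. In HNRNPDL (1.64) and PDCD2 (1.43) this change was larger than the 72 h gap of 1.37 and 1.29. At 72 h 26 lower and 6 upper probe sets lay within 0.5 of control. All these values are on the deposited scale. The spike-ins averaged 9.83 in Ota arrays at 24 h and 8.91 at 72 h, against 7.98 and 8.02 in control arrays. Scaled to them, the median 72 h difference was 1.38 over the upper and -1.72 over the lower probe sets. The 24 h values were chosen for their size and the 72 h values were not.

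Many of these differences start from a low value. The upper probe set averaged under 4 in control cells in 18 genes at 24 h and in 12 at 72 h, and the lower probe set averaged under 4 in Ota cells in 14 genes at 24 h and in 1 at 72 h. BRD7, SPTBN1 and JMJD6 were among the upper probe sets of this kind, with 72 h control means of 3.00 ± 0.02, 3.34 ± 0.01 and 3.11 ± 0.40 (SD, n = 3). The size of such a difference rests on where GCRMA places a weak signal. Over all tested probe sets with a mean over 5, the median 72 h difference was -0.19 for means of 5 to 7, 0.03 for 7 to 9 and 0.12 above 9.

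The upper and lower probe sets also differed in kind. Names ending in _at alone mark a probe set designed to be specific to 1 transcript group, while _s_at and _x_at mark probes shared between transcripts or with other sequences. Of the 82 upper probe sets 76.8% ended in _at alone, 17.1% in _s_at and 6.10% in _x_at, and of the lower ones 56.1%, 36.6% and 6.10%. Over all 10737 probe sets of genes with at least 2, the shares were 47.6%, 39.1% and 11.2%. Where the platform table gave a source record, the upper probe set came from a curated reference transcript in 10 of 65 and from an expressed sequence tag in 39, and the lower one from a reference transcript in 28 of 71 and from an expressed sequence tag in 27. Of all such probe sets 26.9% came from a reference transcript and 39.7% from an expressed sequence tag. In 15 genes an expressed sequence tag probe set was the upper and a reference transcript probe set the lower, and in 3 it was the other way round, which is 18.3% and 3.66% of the 82. In the 4027 other genes with at least 2 probe sets these were 465 and 285, or 11.5% and 7.08%. In 33 genes neither probe set was _s_at or _x_at, and among these 31 had a called gap and in 15 the upper rose and the lower fell, with a median gap of 3.47.

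**Figure D5:**
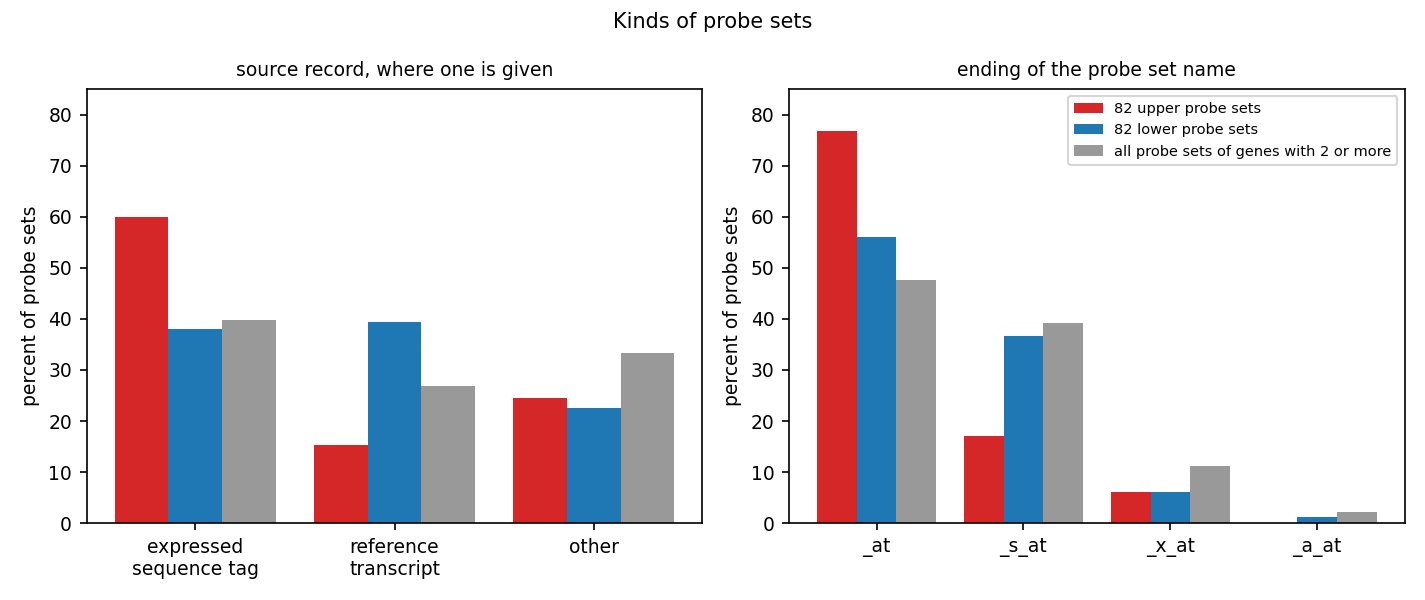
Shares (percent) of probe sets by source record, among those with one, and by name ending, for the 82 upper probe sets, the 82 lower probe sets and all probe sets of genes with at least 2. Expressed sequence tags stand behind 39 of 65 upper and 27 of 71 lower probe sets, and reference transcripts behind 10 and 28 of them.

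A comparison with other genes shows what goes with a large gap as such. Among 285 other genes, the 24 h gap was at least the 3.03 of the smallest member but only 1 side passed the ±1.5 rule. At 72 h 91.5% of the 82 genes and 86.7% of these 285 had a gap called above 0. The upper probe set rose and the lower fell in 45.1% of the 82 and in 23.2% of the 285, and the median differences of upper and lower were 2.27 and -0.83 in the 82 and 1.31 and -0.69 in the 285. In 100 genes with at least 2 probe sets higher by 1.5 at 24 h and none lower, 65.0% had a gap called above 0, and in 525 genes with at least 2 lower and none higher, 25.5% had. These are counts beside each other, and no test of a difference between the sets of genes was made.

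Genes that make 3′ ends and survey RNA were counted from lists. Of 21 genes of 3′ end processing 19 were measured, each by its brightest probe set on average, and at 72 h 10 rose and 3 fell, against 6 and 9 at 24 h. Of the 21 genes, 11 had at least 2 probe sets with a mean over 5, and the others of a gene were not counted. CPSF6 was counted by its lower probe set, 202469_s_at. The U1 small nuclear ribonucleoprotein, which also suppresses premature 3′ end cutting within genes, had 5 of 6 measured members risen and 1 fallen at 72 h. Of 14 genes of the nuclear exosome, which degrades nuclear RNA, 2 rose and 9 fell at 72 h, with a median of -0.76, and 1 rose and 10 fell at 24 h. Nonsense-mediated decay had 3 of 5 risen and 1 fallen at 72 h, and elongation factors and kinases of RNA polymerase II 4 of 9 risen and 1 fallen. The 72 h medians of 3′ end processing, U1, nonsense-mediated decay and elongation were 0.72, 1.09, 0.65 and 0.35 on the deposited scale, and -0.17, 0.20, -0.24 and -0.54 scaled to the spike-ins. At 72 h 27.2% of all probe sets rose and 31.6% fell, and at 24 h 22.7% rose and 37.7% fell. Only CPSF6 of these lists was among the 82 genes, of 30 list genes with at least 2 probe sets over the limit. Whether these levels bear on the opposite movements was not tested.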

How the data were processed

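The authors deposited log2 expression values per probe set, made with GCRMA per the submitters' processing notes. The version, the arrays normalized together and the genome build are not given in the sources used here. The platform annotation gave 1 symbol for 41097 of 54675 probe sets, several for 1801 and none for 11777. Testing covered the 19407 probe sets with 1 symbol that exceeded 4 on 3 or more of the 12 arrays. limma 3.58.1 in R 4.3.3 fitted 4 group means, with 8 residual and 3.71 prior degrees of freedom, and in the same way the gap over 4109 genes (prior 3.28). Tests are two-sided with Benjamini-Hochberg adjustment and a threshold of 0.05. Array-wide measures were compared by exact permutation. The median SE of a 72 h difference was 0.22. On simulated data the fit recovered 44% of probe sets changed by 1 and 96% of those changed by 2, and 5.47% of its calls were unchanged probe sets. For gaps these were 72%, 98% and 6.00%.

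The members, role groups and lists were chosen with earlier results of these data known. The minimum mean of 5 used all 12 arrays, so the tested 72 h values had a part in it. Genes named in full have the 10 largest gaps at 24 h, the 10 largest called gaps at 72 h, the 5 gaps nearest to 0, the most probe sets past the rule (12 of 34 such genes), a place just inside the rule, or a list. HEATR6, KMT2C, LDAH, SP110, GPAT4 and ACTR3 were named after their values were seen. The alternatives tried were other scalings, filters, cut-offs, models and left-out arrays. The arrays carry no read depth, and their number limits the precision. No genome positions were used.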

Additional observations from a re-analysis of the deposited data

Results flagged for a closer look

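In 15 probe sets, 2 upper and 13 lower ones, the 3 Ota arrays lay wholly on 1 side of the 3 control arrays at 24 h and wholly on the other side at 72 h. At 72 h alone the Ota arrays lay wholly above the control arrays in 34.5% of all tested probe sets and wholly below in 37.4%. The share of all probe sets that changed sides was not counted, so whether 15 is unusual is not known. The difference between the 24 h and the 72 h effect was not tested, since the 24 h values chose the genes. The 2 upper probe sets, higher at 24 h and lower at 72 h, had 72 h differences of -0.59 in BICD1 and -0.38 in HEATR6, and that of HEATR6 passed the test. The 13 lower probe sets, lower at 24 h and higher at 72 h, had differences of 0.13 in WDR12, 0.43 in NDUFAF4, 0.45 in MR1, 0.49 in FBXW2, 0.51 in PPP2R2D, 0.64 in GPAT4, 0.66 in IDI1, 0.71 in ACTR3, 0.80 in ZNF326, 0.90 in GTPBP4, 0.99 in LDAH, 1.02 in SP110 and 1.16 in MRPL35. Of these 13, GPAT4, IDI1, ACTR3, GTPBP4, SP110 and MRPL35 passed the test at 72 h. Scaled to the spike-ins, 9 of these 13 lay below control at 72 h and 4 above it, and both upper probe sets lay below control already at 24 h, so that 4 of the 15 kept opposite signs at the 2 times.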

How the results depend on the processing

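None of the 82 genes was called below 0 in any alternative run, and leaving out 1 array gave 72 to 78 gaps called above 0, 72 to 75 upper probe sets risen and 37 to 45 lower ones fallen. The upper probe sets fallen numbered 0 to 2 and the lower ones risen 3 to 11 when 1 array was left out. The upper probe sets fallen were 0 with quantile normalization, centring, a variance trend with robust moderation, an adjusted p under 0.01 or a difference of at least 1, 2 with array weights and 4 scaled to the spike-ins. The lower ones risen were 12 with the 6 arrays of 72 h alone, 15 with array weights, 3 at an adjusted p under 0.01 or with no filter on low values, 2 at a difference of at least 1 and 0 scaled to the spike-ins. Over all probe sets 3068 rose at a difference of at least 1, and scaled to the spike-ins 1336 rose and 11459 fell. Gaps called above 0 over all genes numbered 1334 of 4109 in the main run and 888 of 4109 at a size of at least 1. Without _s_at and _x_at probe sets they numbered 647 of the 1668 genes that kept a pair. With the mean of the higher minus the mean of the lower probe sets they numbered 699. That measure covers only genes with probe sets on both sides of 0 at 24 h. Of the 82 genes, 45 of 47 whose pair kept a mean over 6 had a called gap, and 31 of 33 whose pair held no _s_at or _x_at probe set. In an alternative chosen after seeing the data, it was 71 of 77 whose probe sets both exceeded 5 on all arrays of a 72 h group.

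The rule found 82 genes, or 2.0% of the 4109 with at least 2 probe sets, and 193 (4.7%) at a limit of 1 and 38 (0.925%) at 2. With a mean over 6 it found 49 of 3307 such genes (1.48%), and with a mean over 7 it found 25 of 2452 (1.02%). Without _s_at and _x_at probe sets it found 37 of 1668 (2.22%). Applied to the 72 h arrays it found 28 of 4109 (0.681%), of which 14 were among the 82. Leaving out 1 array of 24 h gave 70 (1.69%) to 91 (2.21%). Scaled to the spike-ins it found 67, of which 19 were shared. Single values turned negative in BICD1 (-0.63 to 0.80 when 1 array was left out) and ROR1 (-0.29 with the means of sides). At 72 h the replicate numbers did not clearly pair the arrays, with r of -0.10, 0.14 and 0.17 for equal numbers and -0.23 to 0.12 for others. At 24 h r was 0.11, 0.22 and 0.25 for equal numbers, each above the -0.22 to 0.01 for others. The 24 h difference was not tested, but those arrays share in the spread of the fit. With the replicate block 76 gaps were called above 0, GTPBP4 among them, 74 upper probe sets rose and 44 lower ones fell. Weak signals limit the sizes: in 12 genes the upper probe set averaged under 4 in control cells at 72 h. The causes of these changes were not tested.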
